A study of Mus musculus with 20 samples.

Results

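The mRNA levels of 10 genes were followed across 20 RNA-seq libraries of p19/Nras mouse liver cancer cells. The genes encode the 3 pocket proteins (Rb1, Rbl1 and Rbl2), the 5 subunits of the MuvB core (Lin9, Lin37, Lin52, Lin54 and Rbbp4), the E2F partner Tfdp1 and the B-Myb protein Mybl2. They were taken by name from a fixed list and not by their values. All 10 are in both tables of read counts, which hold 13107 genes (Myc experiment) and 11210 genes (HU experiment).

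All groups share the same tumour background. The cells are a mouse liver tumour line (cell type label HCC) that lacks p19/Arf and is driven by oncogenic Nras, and they were grown in DMEM with 10% FBS. In the Myc experiment, Trim33-WT cells (sgCtrl) and a pair of knockout lines, Trim33-KO1 and Trim33-KO2 (sgTrim33), made with Cas9 and single guide RNAs, carried either the empty pWZL vector (Ctrl) or a Myc vector. In the HU experiment, Trim33-WT cells (sgCtrl) and Trim33-KO cells (sgTrim33) were left untreated or received 1 mM hydroxyurea (HU), a drug that depletes nucleotides and stalls replication forks, for 4 hours. The labels do not name the KO line of the HU experiment. Each of the 10 groups has 2 libraries.

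The pocket proteins bind E2F transcription factors and hold cell cycle genes silent. Rb1 mainly restrains the activating E2Fs, whereas Rbl1 (p107) and Rbl2 (p130) work with E2f4 or E2f5 and a DP partner and with the MuvB core, an assembly known as DREAM, which represses cell cycle genes in resting cells and early G1. When cells enter the cycle, cyclin-dependent kinases phosphorylate the pocket proteins, DREAM comes apart, and the MuvB core joins first B-Myb and then Foxm1 to switch on genes of G2 and mitosis. Rb1 and its relatives are known brakes on hepatocyte proliferation and liver tumour growth. These proteins are controlled to a large degree by phosphorylation, which mRNA levels do not measure.

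Levels are given as CPM, the read counts of a gene scaled to a common library total by the TMM method. Differences are log2 fold changes (log2FC) with their standard error (SE) or 95% interval from edgeR's quasi-likelihood test, in which p-values were adjusted over all genes tested. A gene is said to rise or fall where the adjusted p was below 0.01, or below 0.05 for HU against untreated. Libraries of the Myc experiment held 14753177 to 17949430 counts and those of the HU experiment 2315327 to 3082202, so that values of the HU experiment carry the wider errors. Nothing in the labels says that the 2 libraries of a group come from separate cultures, and the p-values then measure only the spread between these libraries. In bulk RNA, a larger share of cycling cells and more RNA per cell cannot be told apart.

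The targeted gene was examined in every group first. With the Ctrl vector, Trim33 stood at 245.6 and 258.1 CPM in WT, at 123.4 and 130.4 in KO1 and at 200.9 and 206.8 in KO2. With the Myc vector the order differed from the labels, with 130.7 and 154.7 CPM in the libraries labelled WT Myc and, by their labels, 185.4 and 192.5 for KO1 Myc but 124.1 and 124.7 for KO2 Myc. Myc mRNA stood at 432.8 and 439.0 CPM in WT Ctrl and at 455.9 and 457.6 in the libraries labelled WT Myc (log2FC 0.07). In KO1 it read 186.4 and 196.4 CPM with Ctrl and, by label, 620.9 and 645.8 with Myc. In KO2 it read 210.3 and 218.5 CPM with Ctrl and, by label, 459.4 and 498.8 with Myc. In the HU experiment, Trim33 ranged from 125.2 to 142.2 CPM in WT and from 43.8 to 52.2 in KO. Small Cas9 deletions need not remove an mRNA, and this check of the labels is therefore a partial one. The order of the KO lines with the Myc vector was the reverse of that with the Ctrl vector. Rbbp7, a relative of the member Rbbp4, had Ctrl levels of 196.3 and 202.0 CPM in KO1 but 392.1 and 394.7 in KO2, while its level by label was 359.7 and 352.7 in KO1 Myc but 200.1 and 193.9 in KO2 Myc. Foxm1 showed the same reversal, with 164.4 and 170.0 (KO1 Ctrl), 247.2 and 251.4 (KO2 Ctrl), 229.1 and 234.9 (KO1 Myc) and 171.5 and 176.9 CPM (KO2 Myc). Of 2398 genes that differed between KO2 Ctrl and KO1 Ctrl, 86.9% had a difference of the opposite sign between the libraries labelled KO2 Myc and KO1 Myc. Any value for a single KO line that uses its Myc libraries therefore rests on those labels. Such values are given by library label, beside a contrast over the mean of both KO lines, which is the same whichever KO library bears which number and was chosen after seeing the data.

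Of 16 hepatocyte markers only 2 were listed in either table (Afp and Cyp7a1 in the Myc experiment, Afp and Apob in the HU experiment), and Alb, Ttr and Hnf4a were listed in neither. The 2 listed in the Myc experiment summed to 30.5 to 33.1 CPM in WT Ctrl, 0.798 to 0.920 in KO1 Ctrl and 9.11 to 9.21 in KO2 Ctrl. Cholangiocyte and progenitor markers, with 5 of 7 listed, summed to 6533 to 6726 CPM in WT Ctrl against 5206 to 5235 in KO1 Ctrl and 5132 to 5242 in KO2 Ctrl. Mesenchymal markers, with 7 of 9 listed, summed to 2920 to 3111 CPM in WT Ctrl, 4210 to 4250 in KO1 Ctrl and 3244 to 3291 in KO2 Ctrl. One of 6 immune markers was listed, at no more than 6.30 CPM in any library, and 0 of 5 endothelial markers. With the Myc vector, the hepatocyte sum by label was 19.7 to 25.1 CPM for WT Myc, 2.90 to 3.66 for KO1 Myc and 0.221 to 0.297 for KO2 Myc. The mesenchymal sum was 3175 to 3364, 2911 to 2929 and 3792 to 3836 CPM in the same order, so that both sums again had the KO lines in the reverse of their Ctrl order, and the cholangiocyte sum ran from 3105 to 4683. In the HU experiment they ran from 13.5 to 29.2, from 2536 to 3443 and, with 4 of 9 mesenchymal markers listed, from 2667 to 3444 CPM. These sums moved with the groups, and their part in the results below was not tested.

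Per kilobase of exon, the 10 genes spanned a wide range in WT Ctrl cells. Tfdp1 led with a mean of 35.9 CPM per kb, followed by Rbbp4 (25.6), Rbl1 (9.67), Lin9 (8.77), Rb1 (6.87), Lin54 (6.30), Lin37 (5.53), Rbl2 (4.65), Mybl2 (4.60) and Lin52 (3.53). Only Rbl2 and Mybl2 were neighbours in this order whose libraries overlapped. The order of the pocket proteins differed between groups. Rbl1 was the highest of the 3 in every group, while Rb1 stood above Rbl2 in WT Ctrl and below it in KO1 Ctrl (4.02 against 6.88 CPM per kb) and KO2 Ctrl (5.07 against 6.44). Mybl2 moved from the ninth place in WT Ctrl to the third in KO2 Ctrl, at 12.1 CPM per kb. These lengths come from GENCODE vM1 gene models on mm9, and the annotation behind the counts is not given in the sources used here.

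**Figure D1:**
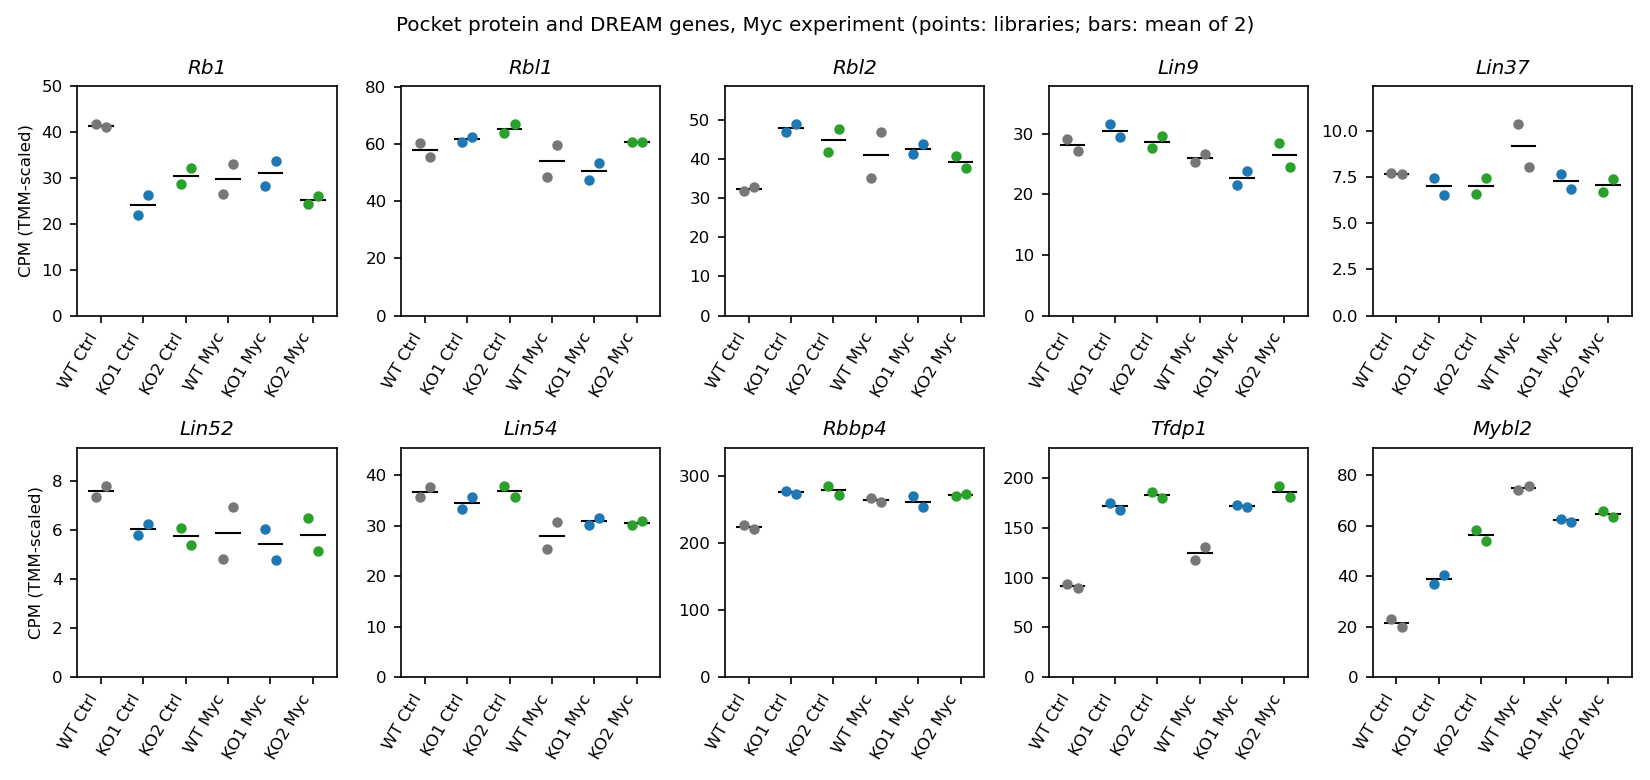
Levels of the 10 genes in the 12 libraries of the Myc experiment, in CPM on linear axes that start at 0, with 1 panel per gene. Points are libraries and bars the means of 2. Tfdp1 and Mybl2 sit lowest in WT Ctrl, where Tfdp1 reads 93.3 and 89.3 CPM and Mybl2 23.0 and 19.7, while Rb1 is highest there at 41.7 and 41.0.

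Loss of Trim33 was compared with WT in cells with the Ctrl vector, which asks how the pocket proteins and their partners stand in unchallenged KO cells. Tfdp1, Mybl2, Rbbp4 and Rbl2 rose in both KO lines, and Rb1 fell in both. The remaining 5 genes (Rbl1, Lin9, Lin37, Lin52 and Lin54) did not pass the test in either line. In KO1, 4 of the 10 genes rose and 1 fell, where 25.5% of all genes tested rose and 26.7% fell, so that the number of genes called was near the 52.2% of the background. The KO2 line gave the same numbers, with 23.3% of all genes rising, 26.6% falling and 49.9% called. Both comparisons use the same 2 WT libraries, and their values are therefore given side by side.

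Rb1, the retinoblastoma protein that gives the family its name, lies on the minus strand of chr14:73583480-73725629 (mm9). It read 41.7 and 41.0 CPM in WT Ctrl, 22.0 and 26.4 in KO1 and 28.7 and 32.3 in KO2. Both WT libraries were above all 4 KO libraries. The log2FC was -0.77 in KO1 (95% interval -1.02 to -0.53, adjusted p = 2.21e-05) and -0.44 in KO2 (-0.68 to -0.20, adjusted p = 0.00288). The call in KO2 was lost without either WT Ctrl library (log2FC -0.43 and -0.45) and without KO2 Ctrl replicate 1 (-0.36). Exons of Lpar6 and Rcbtb2 overlap Rb1 on the other strand, and since it is not stated whether counting used strand, their reads cannot be told apart from those of Rb1. Lpar6 changed by 0.35 in KO1, where it rose, and by 0.01 in KO2.

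Rbl2, the pocket protein p130 that anchors DREAM in resting cells, lies on the plus strand of chr8:93593956-93647743. It went the other way, with 31.8 and 33.0 CPM in WT Ctrl, 47.0 and 48.9 in KO1 and 41.9 and 47.7 in KO2. All 4 KO libraries were above both WT libraries. Its log2FC was 0.57 in KO1 (0.33 to 0.80, adjusted p = 0.000276) and 0.47 in KO2 (0.24 to 0.70, adjusted p = 0.00153). The call in KO2 was lost without either WT Ctrl library (log2FC 0.44 and 0.50) and without KO2 Ctrl replicate 2 (0.37). Aktip overlaps Rbl2 on the other strand and fell in both lines, at -0.49 (KO1) and -0.65 (KO2).

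Rbl1, the pocket protein p107, whose gene lies on the minus strand of chr2:156971629-157030270 and is itself a known E2F target, differed little. It stood at 60.3 and 55.6 CPM in WT Ctrl, 60.9 and 62.4 in KO1, and in KO2 63.8 and 66.9. The log2FC was 0.09 in KO1 (-0.10 to 0.28) and 0.17 in KO2 (-0.01 to 0.36), which leaves room for a rise of the size seen for Rbbp4 in KO2 but not for one of the size of Tfdp1.

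Tfdp1 encodes DP1, the dimer partner that E2F proteins need to bind DNA, and lies on the plus strand of chr8:13338751-13378395. It read 93.3 and 89.3 CPM in WT Ctrl, 175.7 and 168.6 in KO1, and in KO2 185.8 and 180.6. The 2 KO lines lay far above WT and close to each other. The log2FC was 0.91 in KO1 (0.78 to 1.05, adjusted p = 2.76e-09) and 1.00 in KO2 (0.87 to 1.14, adjusted p = 1.21e-09), and the difference between KO2 and KO1, at 0.09, did not pass the test. Its relative Tfdp2, which encodes another DP protein, changed by -0.01 (KO1) and 0.19 (KO2) and passed the test in neither.

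Mybl2 encodes B-Myb, which takes over the MuvB core in S phase, and lies on the plus strand of chr2:162880423-162910424. Levels were 23.0 and 19.7 CPM in WT Ctrl, 37.0 and 40.4 in KO1 and 58.3 and 54.1 in KO2, without overlap between any of the 3 groups. The log2FC against WT was 0.86 in KO1 (0.68 to 1.04, adjusted p = 2.68e-07) and 1.40 in KO2 (1.22 to 1.58, adjusted p = 7.57e-10). Mybl2 was also the one member of the 10 that differed between the KO lines, by 0.54 (0.37 to 0.70, adjusted p = 6.04e-05), in a comparison in which 18.3% of all genes were called. Rb1 had a log2FC of 0.33 there (adjusted p = 0.0466 by edgeR), and passed when the fit held only the 2 groups compared or only the 6 Ctrl-vector libraries.

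Among the MuvB core, Rbbp4 was the one subunit that rose. Rbbp4 is a histone-binding chaperone that also serves in other chromatin complexes, and it lies on the minus strand of chr4:128984344-129012614. It read 226.9 and 221.2 CPM in WT Ctrl, 278.0 and 273.5 in KO1, and in KO2 285.6 and 272.0. The shift was small but well outside the spread of the libraries, with a log2FC of 0.30 in KO1 (SE 0.0529, adjusted p = 0.000118) and 0.32 in KO2 (SE 0.0528, adjusted p = 7.71e-05). The much less abundant Sync overlaps Rbbp4 on the other strand and had values of -0.16 (KO1) and -1.11 (KO2, adjusted p = 0.0301 by edgeR) on the log2 scale, neither called. The close relative Rbbp7 split the lines, since it fell by 0.49 in KO1 and rose by 0.50 in KO2 on the log2 scale.

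None of the 4 Lin subunits passed the test in either line, and the 2 least abundant, Lin52 and Lin37, were measured with wide intervals. Lin9 (plus strand of chr1:182571498-182620816), which with Lin52 holds B-Myb, stood at 29.0 and 27.2 CPM in WT Ctrl, 31.5 and 29.4 in KO1 and 27.6 and 29.5 in KO2. Lin54 (minus strand of chr5:100870937-100929658), the subunit that reads the CHR element in DNA, stood at 35.7 and 37.7, 33.4 and 35.7, and 38.0 and 35.8 CPM in the same order. Their log2FC lay between -0.09 and 0.12 in both lines. The KO2 libraries overlapped those of WT for both genes, while in KO1 Lin9 lay just above WT and Lin54 reached only to the lower WT library. Lin52 (plus strand of chr12:85792458-85872483), whose phosphorylation ties the pocket proteins to MuvB, was low at 7.35 and 7.79 CPM in WT Ctrl, 5.79 and 6.24 in KO1 and 6.07 and 5.40 in KO2. All 4 KO libraries of Lin52 were below WT. Its log2FC was -0.33 in KO1 (-0.72 to 0.05, adjusted p = 0.123 by edgeR) and -0.40 in KO2 (-0.79 to -0.01, adjusted p = 0.0685 by edgeR). Lin37 (minus strand of chr7:31340460-31344857), which is needed for repression by DREAM, had a log2FC of -0.14 and -0.13, at 6.51 to 7.70 CPM over the 6 libraries. Hspb6 overlaps Lin37 on the other strand and rose in both lines, by 1.04 in KO1 and 0.63 in KO2.

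**Figure D2:**
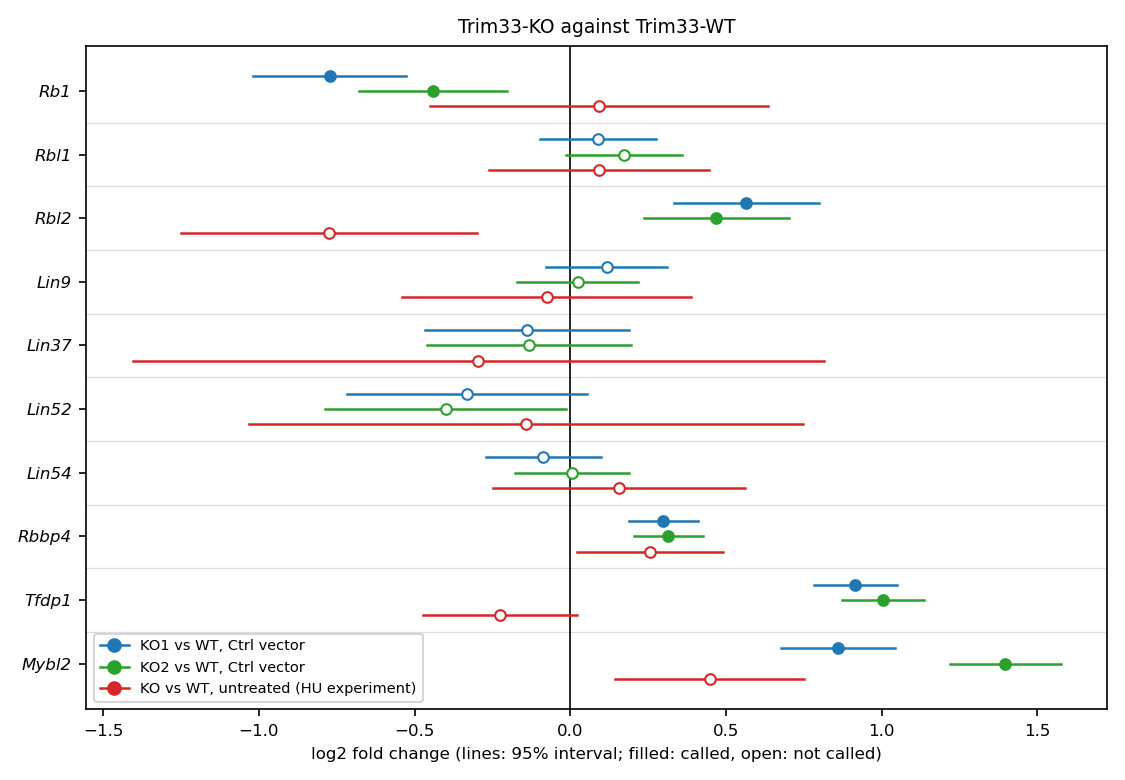
Log2 fold change of Trim33-KO against Trim33-WT for the 10 genes, in KO1 and KO2 with the Ctrl vector and in untreated KO cells of the HU experiment. Lines are 95% intervals and filled points are called at an adjusted p below 0.01. Tfdp1 is near 1 in KO1 and KO2 (0.91 and 1.00) and at -0.23 in the HU experiment, and Rbl2 is above 0 in KO1 and KO2 (0.57 and 0.47) and at -0.77 in the HU experiment.

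The promoters of these genes were examined for E2F sites because E2F and DREAM bind close to transcription start sites. Among the 300 bases around RefSeq starts (250 before, 50 after, GRCm38.p6), the strings TTTCCCGC, TTTGGCGC, TTTCGCGC and TTTGCCGC were searched on both strands. At least 1 of them was in 2.26% of 32851 promoters, and in the promoters of 3 of the 8 members that could be matched. Rb1 and Lin9 were not matched. Shown are the 120 bases before the start, 5′ to 3′ on the strand of the gene, for the 3 members that hold a string. The string is in capitals, and for Tfdp1 it appears as its reverse complement. Mybl2 and Rbl2, which rose in the KO lines with the Ctrl vector and hold none of these exact strings, are also shown.
Tfdp1, chr8:13338631-13338750, plus strand: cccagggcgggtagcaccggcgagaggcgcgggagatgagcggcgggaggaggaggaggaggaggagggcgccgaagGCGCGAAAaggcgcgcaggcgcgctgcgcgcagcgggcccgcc
Rbl1, chr2:157204535-157204654, minus strand: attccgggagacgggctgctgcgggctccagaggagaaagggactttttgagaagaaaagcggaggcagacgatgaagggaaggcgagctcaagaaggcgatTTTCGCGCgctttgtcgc
Lin52, chr12:84451388-84451507, plus strand: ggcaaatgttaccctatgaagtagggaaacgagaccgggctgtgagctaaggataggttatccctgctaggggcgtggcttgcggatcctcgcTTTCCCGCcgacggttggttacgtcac
Mybl2, chr2:163054515-163054634, plus strand: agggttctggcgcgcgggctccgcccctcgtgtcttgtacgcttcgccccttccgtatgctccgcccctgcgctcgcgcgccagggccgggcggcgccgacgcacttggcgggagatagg
Rbl2, chr8:91069937-91070056, plus strand: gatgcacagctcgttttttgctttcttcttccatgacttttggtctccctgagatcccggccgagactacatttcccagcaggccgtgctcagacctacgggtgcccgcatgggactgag
The string begins 43 bases before the first of 2 annotated starts in Tfdp1, 18 before the start in Rbl1 and 27 before the start in Lin52. Of these genes, Tfdp1 rose in the KO lines with the Ctrl vector and Rbl1 and Lin52 did not pass the test. The CHR strings TTTGAA and TTCGAA were in the promoters of Lin37, Lin54 and Rbl2, that is 3 of 8 members against 19.2% of all promoters. A match is a description of the letters only, and no match says only that these letters are not in this window.

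Genes that these complexes control or depend on were counted in the same comparisons. Of 26 targets of DREAM in G1/S, such as replication genes, 21 rose and 2 fell in KO1 (median log2FC 0.75, against -0.0036 over all genes), and 24 rose and 1 fell in KO2 (median 0.87). Uhrf1, which keeps DNA methylation through replication, changed most in both, by 1.42 (SE 0.086) in KO1 and 1.82 (SE 0.085) in KO2. The nucleotide enzyme Tk1 rose by 1.27 in KO1, and the helicase subunit Mcm4 by 1.52 in KO2. Of 26 targets in G2/M, 18 rose and 2 fell in KO1 (median 0.40), and 24 rose and 0 fell in KO2 (median 0.66), led in both by the mitotic kinesin Kif20a (1.36 and 1.52) and the proliferation marker Mki67 (1.04 and 1.51). The lists were drawn up with earlier results of these data known, so that their direction is not independent evidence.

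Among the 8 E2F genes, 4 rose in KO1 and 5 in KO2, and 0 fell in either, where 25.5% (KO1) and 23.3% (KO2) of all genes rose. The largest rises were those of the atypical repressors E2f7 (1.71 and 1.68) and E2f8 (1.21 and 1.37), and the activator E2f1 rose by 0.83 and 1.22. The DREAM partners E2f4 (-0.07 and -0.06) and E2f5 (-0.22 and -0.25) did not pass the test. Of 10 cyclins and kinases that act on pocket proteins or on MuvB (the D-type and E-type cyclins, Cdk2, Cdk4, Cdk6 and the Dyrk1 kinases), 5 rose and 2 fell in each line, with cyclin E leading: Ccne2 rose by 2.02 and 2.24 and Ccne1 by 1.33 and 2.26. Of 6 inhibitors of these kinases, 3 rose and 1 fell in KO1 and 2 rose and 1 fell in KO2. The inhibitor Cdkn2c (p18) rose by 1.30 and 1.33, whereas Cdkn1a (p21) had a log2FC of -1.30 and -0.95 and fell in both. Of 10 corepressors that work with pocket proteins, 6 rose and 1 fell in KO1 (the remodeller Smarca2 most, by 1.39), and 5 rose and 1 fell in KO2 (the histone methyltransferase Suv39h1 most, by 0.74). The called shares of the E2F genes, the cyclins and kinases, the inhibitors and the corepressors stand against 52.2% (KO1) and 49.9% (KO2) of all genes. With 6 to 10 genes a list, nothing particular to these lists is read from them. Foxm1, which follows B-Myb on MuvB, rose by 0.49 and 1.07, and Mybl1, the relative A-Myb, by 0.73 and 1.15.

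The Myc vector was then compared with the Ctrl vector within each genotype, which asks how the same genes respond to Myc with and without Trim33. In WT, Mybl2 rose most, Tfdp1 and Rbbp4 rose, and Rb1 and Lin54 fell. By library label, Mybl2 rose less and Lin9 fell in KO1, and in KO2 no member passed the test. For the mean of both KO lines, a rise of Mybl2 and a fall of Lin9 and Lin54 passed. The background was 44.3% of genes called in WT (21.6% higher, 22.7% lower), 36.1% in KO1 and 38.8% in KO2, against 5, 2 and 0 of the 10 members. It was 42% for the mean of both KO lines, with 3 members called. In KO2, DESeq2 also called 0. Every difference here rests on libraries whose Trim33 order differed from their labels. The contrast over both KO lines removes the dependence on KO1 and KO2 but not that on the libraries labelled WT Myc. Myc mRNA itself was close to its Ctrl level in those WT libraries, while it was well above Ctrl in all KO Myc libraries.

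Mybl2 went from 23.0 and 19.7 CPM in WT Ctrl to 74.2 and 75.8 in the libraries labelled WT Myc, the highest of the experiment. By library label it read 62.7 and 61.5 in KO1 Myc, and in KO2 Myc 65.7 and 63.3. The log2FC was 1.82 in WT (1.64 to 1.99, adjusted p = 1.07e-10), 0.68 in KO1 (SE 0.0762, adjusted p = 1.95e-06) and 0.20 in KO2 (adjusted p = 0.0318 by edgeR). Both KO lines together went from 37.0 to 58.3 CPM with Ctrl to 61.5 to 65.7 with Myc, without overlap, and the log2FC over their mean was 0.44 (0.33 to 0.55, adjusted p = 3.6e-06). The response was smaller than in WT by the test of the difference itself, at -1.13 in KO1 (SE 0.113, adjusted p = 5.36e-07) and -1.62 in KO2 (SE 0.110, adjusted p = 1.09e-08), and over the mean of both lines it was smaller by -1.37 (-1.58 to -1.17, adjusted p = 1.67e-08). Over the 10 members the difference in response was called for 4 in each line, where 37.3% of all genes were called for KO1 and 32.8% for KO2, and over the mean of both lines for 5 (Mybl2, Tfdp1, Rbbp4, Rbl2 and Rb1), where 34.7% of all genes were called. The 3 genotypes ended between 61.5 and 75.8 CPM with the Myc vector after starting between 19.7 and 58.3 with the Ctrl vector. For every member, KO against WT with Ctrl, Myc in WT and the difference in response all use the same 2 WT Ctrl libraries. These values are therefore not independent of each other.

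Tfdp1 rose from 93.3 and 89.3 CPM in WT Ctrl to 117.8 and 131.0 in the libraries labelled WT Myc (log2FC 0.45, SE 0.0633, adjusted p = 1.93e-05). It remained below KO1 and KO2, which read 173.3 and 170.9 and 192.5 and 180.8 CPM in their Myc libraries. The interval of the log2FC by Myc was -0.13 to 0.13 in KO1 and -0.10 to 0.15 in KO2, and over both lines, at 168.6 to 185.8 CPM with Ctrl and 170.9 to 192.5 with Myc, it was -0.077 to 0.10. Its response differed from that in WT by -0.45 in KO1 (adjusted p = 0.000495) and -0.42 in KO2 (adjusted p = 0.000934), and over the mean of both by -0.43 (adjusted p = 0.000209). Rbbp4 also rose in WT, to 267.5 and 260.9 CPM in the libraries labelled WT Myc (log2FC 0.24, SE 0.0528), but the 4 KO Myc libraries, at 254.3 to 272.9 CPM, spanned the WT Myc libraries and did not lie above them. Its difference in response was -0.31 in KO1 (adjusted p = 0.00248) and -0.28 in KO2 (adjusted p = 0.00619), and over the mean of both -0.29 (adjusted p = 0.00135). When 1 library was left out at a time, the difference for Rbbp4 passed in 5 of 8 fits for KO1, and was lost without WT Ctrl replicate 2 (-0.29), KO1 Ctrl replicate 1 (-0.30) or KO1 Myc replicate 2 (-0.27). For KO2 it passed in 2 of 8 fits, those without a WT Myc library, and otherwise ran from -0.31 without KO2 Ctrl replicate 2 to -0.24 without KO2 Ctrl replicate 1. Those for Mybl2 and Tfdp1 passed in 8 of 8 fits for both lines. Over the mean of both lines the difference passed in 12 of 12 such fits for Mybl2 and Tfdp1, and in 11 for Rbbp4, being lost without WT Ctrl replicate 2 (-0.28).

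Rb1 fell from 41.7 and 41.0 CPM in WT Ctrl to 26.5 and 33.1 in the libraries labelled WT Myc (log2FC -0.47, SE 0.112, adjusted p = 0.00202). In KO1 it read 28.3 and 33.8 CPM with Myc, against 22.0 and 26.4 with Ctrl (log2FC 0.36, adjusted p = 0.0191 by edgeR, and called at 0.50 without KO1 Myc replicate 1 and when the fit held only the groups compared), and in KO2 24.3 and 26.1 against 28.7 and 32.3 (log2FC -0.27, called when the fit held only the groups compared). The libraries labelled KO1 Myc thus stood near those of KO2 Ctrl, and those labelled KO2 Myc near those of KO1 Ctrl. By label the response in KO1 differed from that in WT by 0.83 (SE 0.162, adjusted p = 0.000511) and that in KO2 by 0.20 (adjusted p = 0.343 by edgeR), values that rest on which KO library is which. Both KO lines together ran from 22.0 to 32.3 CPM with Ctrl and from 24.3 to 33.8 with Myc, with a log2FC over their mean of 0.042 (-0.13 to 0.22), and a difference from the response in WT of 0.51 (0.22 to 0.81, adjusted p = 0.00642). That difference passed in 5 of 12 fits with 1 library left out, and ran from 0.36 without WT Myc replicate 1 to 0.68 without WT Myc replicate 2. Rbl2 had a log2FC of 0.35 in WT, from 31.8 and 33.0 CPM to 35.2 and 46.9, which did not pass (adjusted p = 0.014 by edgeR). By label it read 41.4 and 43.8 in KO1 Myc, and in KO2 Myc 40.7 and 37.7, and its response was lower than in WT by the test in KO2 (-0.54, adjusted p = 0.00882) and just missed the threshold in KO1 (-0.52, adjusted p = 0.010 by edgeR). With 1 library left out at a time, the difference for Rbl2 in KO2 passed in 2 of 8 fits and ran from -0.73 without WT Myc replicate 1 to -0.31 without WT Myc replicate 2, and that in KO1 passed in 1 of 8, at -0.70 without WT Myc replicate 1. Over the mean of both lines it was -0.53 (adjusted p = 0.00385), passed in 7 of 12 fits and ran from -0.72 without WT Myc replicate 1 to -0.30 without WT Myc replicate 2.

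Of the Lin genes, only Lin54 and Lin9 were called with all libraries in the fit. Lin54 fell in WT, from 35.7 and 37.7 to 25.4 and 30.7 CPM (log2FC -0.38, SE 0.0885, adjusted p = 0.00159), and had values of -0.16 in KO1 and -0.27 in KO2. Lin9 fell in KO1, from 31.5 and 29.4 to 21.5 and 23.8 CPM (log2FC -0.43, SE 0.0921, adjusted p = 0.00105), and had a value of -0.11 in WT. The call for Lin9 was lost without KO1 Ctrl replicate 1 (-0.38) and without KO1 Myc replicate 1 (-0.34). Lin9 had, over the mean of both KO lines, a log2FC of -0.27 (adjusted p = 0.00209) and Lin54 of -0.22 (adjusted p = 0.00743). These calls passed in 4 and 0 of 8 fits with 1 library left out, at values from -0.33 to -0.22 and from -0.24 to -0.19. Lin52 ranged from 4.76 to 6.92 CPM and Lin37 from 6.70 to 10.3 over the 6 Myc libraries, and neither passed in any genotype. Rbl1 read 48.5 and 59.5 CPM in the libraries labelled WT Myc (log2FC -0.10) and had a value of -0.29 in KO1 (adjusted p = 0.012 by edgeR, called when the fit held only the groups compared) and of -0.20 over the mean of both KO lines (adjusted p = 0.0123 by edgeR, called at -0.24 without KO1 Myc replicate 2).

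The 2 libraries labelled WT Myc differ from each other by gene length. The median log2 ratio of replicate 2 to replicate 1 was -0.13 over the genes of at most 2363 bases and 0.18 over those of at least 5687 bases, and the ratio was 0.42 for Rbl2, 0.33 for Rb1, 0.30 for Rbl1 and 0.28 for Lin54, but 0.16 for Tfdp1, 0.04 for Mybl2 and -0.03 for Rbbp4. The comparison of Myc with Ctrl in WT also leaned by gene length. Among 11129 genes of known length, its median log2FC was 0.14 over the shortest and -0.15 over the longest. Of the long members, Rb1 had -0.47, Lin54 -0.38 and Rbl1 -0.10. The longest, Rbbp4 (8744 bases) and Rbl2 (6963 bases), went the other way, at 0.24 and 0.35. The difference in Myc response leaned the opposite way, with medians of -0.11 (shortest) and 0.14 (longest) for KO1 and -0.09 and 0.11 for KO2. KO against WT with the Myc vector did too, at -0.10 and 0.12 (KO1) and -0.11 and 0.13 (KO2). In the difference for KO1, Rb1 (0.83) and the shorter Tfdp1 (-0.45, 2542 bases) ran along this lean. The long Rbbp4 (-0.31) and Rbl2 (-0.52) ran against it. The part of gene length in these values was not tested. Without WT Myc replicate 1 the log2FC of Rb1 by Myc in WT was -0.32 and that of Lin54 -0.26, both no longer called, and that of Rbl2 was 0.53 and called (adjusted p = 2.5e-05). Without replicate 2 the log2FC of Rb1 was -0.64, that of Rbl2 0.12 and that of Lin52 -0.65, which was then called. The call for Rb1 was also lost without either WT Ctrl library (-0.46 and -0.48), and those for Lin54 (-0.34) and Rbbp4 (0.22) without WT Ctrl replicate 2.

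**Figure D3:**
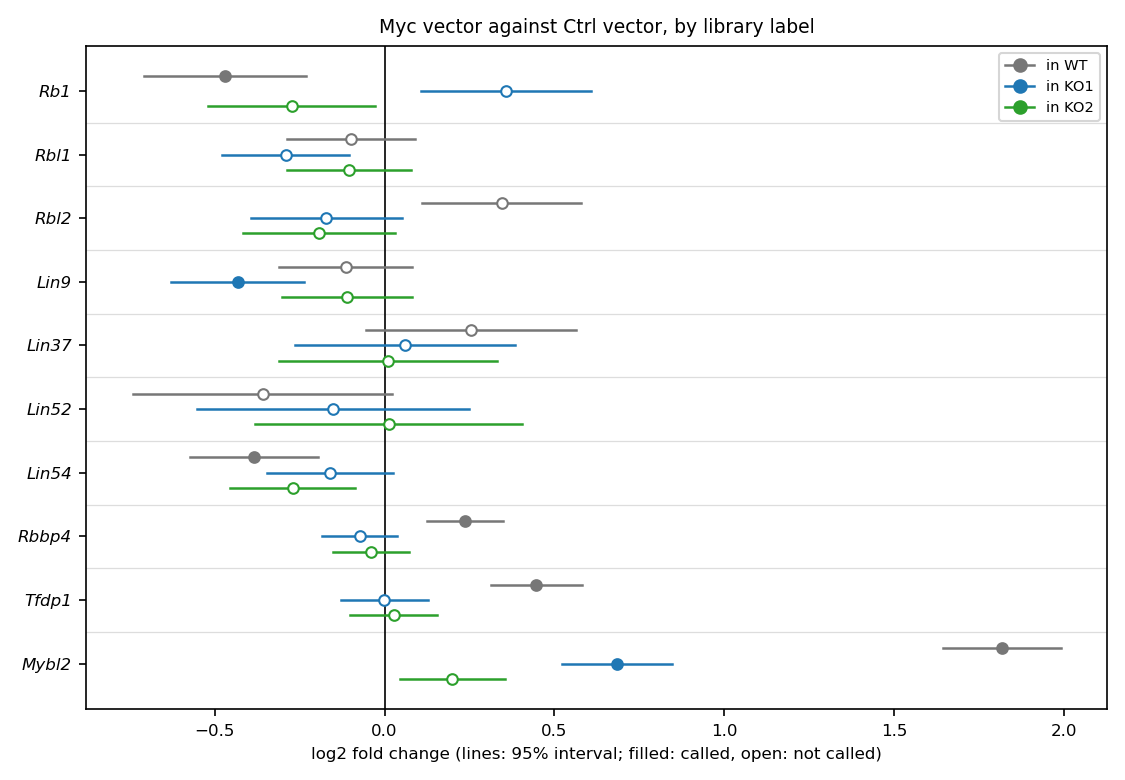
Log2 fold change of the Myc vector against the Ctrl vector for the 10 genes, by the label of the libraries, with 95% intervals. Filled points are called at an adjusted p below 0.01. For Mybl2 the values are 1.82 in WT, 0.68 in KO1 and 0.20 in KO2 by label, and Tfdp1 lies at 0.45 in WT, with intervals that span 0 in both KO lines.

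Targets of DREAM showed the same direction as Mybl2 in WT. By Myc, 25 of the 26 G1/S targets rose and 1 fell in WT (median 0.60, with 21.6% of all genes rising). By library label, 4 rose and 4 fell in KO1, where 36.1% of all genes were called in either direction. In KO2, 1 rose and 12 fell (median -0.17, with 18.6% of all genes falling). For G2/M targets the counts were 13 higher and 1 lower in WT (median 0.22), 2 higher and 3 lower in KO1, and 1 higher and 12 lower in KO2 (median -0.19). The same shares of all genes apply to these G2/M counts. Over the mean of both KO lines, 2 G1/S targets rose and 8 fell (median -0.07), and 1 G2/M target rose and 11 fell (median -0.12). In that contrast 42% of all genes were called in either direction, and the number of targets called is not read as a result about them. The response of 19 G1/S targets was lower in KO1 than in WT by the test of the difference, and that of 22 was lower in KO2, where 18.1% and 16.2% of all genes had a lower response. That of the mean of both lines was lower for 22 G1/S targets (median -0.71) and 15 G2/M targets (median -0.30), where 16.6% of all genes had a lower response. Ccne1 rose by 1.22 and Ccne2 by 0.95 in WT.

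KO and WT were also compared within the Myc vector. Tfdp1 was the one member higher in both lines, with a log2FC of 0.47 in KO1 (SE 0.0610, adjusted p = 1.96e-05) and 0.58 in KO2 (SE 0.0608, adjusted p = 9.37e-07). Mybl2 was lower in the libraries labelled KO1 Myc by -0.27 (SE 0.0718, adjusted p = 0.00718) and had a value of -0.22 in those labelled KO2 Myc (adjusted p = 0.0189 by edgeR). The call for Mybl2 in KO1 was lost without WT Myc replicate 2 (-0.26), without KO1 Myc replicate 1 (-0.26) and without KO1 Myc replicate 2 (-0.26). The members called were 2 and 1 of 10, against 25.1% and 35.2% of all genes. For the mean of both KO lines 2 were called, against 33.8% of all genes, with a log2FC of 0.53 for Tfdp1 (adjusted p = 8.73e-07) and -0.24 for Mybl2 (adjusted p = 0.00395). With 1 library left out, that for Tfdp1 passed in 6 of 6 fits and that for Mybl2 in 2 of 6 (-0.26 to -0.23). Rb1 and Rbl2, which differed between KO and WT with the Ctrl vector, had values of 0.05 and 0.05 in KO1, and Rb1 of -0.24 in KO2. In KO2, Rb1 (-0.39) was called without WT Myc replicate 1, and Lin37 (-0.55) and Rbl1 (0.32) without WT Myc replicate 2.

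The HU experiment offered another comparison of KO with WT cells, at a lower depth. In untreated cells, no member passed the test between KO and WT, where 5.58% of all genes did, and DESeq2 called 0. Rbl2 read 56.6 and 38.7 CPM in WT and 28.1 and 27.4 in KO, so that both KO libraries were below WT, whereas in the Myc experiment they were above it. Its log2FC was -0.77 (-1.25 to -0.30, adjusted p = 0.0223 by edgeR). Without WT untreated replicate 2 it was -1.04 (adjusted p = 0.00848 by edgeR), and without replicate 1 it was -0.49. Tfdp1 read 189.8 and 185.0 CPM in WT and 148.0 and 171.7 in KO, with a log2FC of -0.23. The interval from -0.47 to 0.02 lies below the rise in KO1 and KO2. These WT levels of Tfdp1 stood above the 93.3 and 89.3 CPM of WT Ctrl, with CPM scaled in each experiment alone.

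Mybl2 kept the direction of the Myc experiment, with 72.0 and 91.0 CPM in WT and 117.1 and 106.2 in KO (log2FC 0.45, 0.14 to 0.75, adjusted p = 0.0408 by edgeR), which did not pass. Rbbp4 read 206.5 and 238.0 CPM in WT and 293.1 and 239.2 in KO (log2FC 0.26, adjusted p = 0.156 by edgeR). Rb1 was low and variable in untreated WT cells, at 25.3 and 15.04 CPM from 59 and 40 counts, against 21.9 and 20.7 in KO (log2FC 0.09, interval -0.45 to 0.64). Rcbtb2, whose exons overlap Rb1, fell there by 1.45 on the log2 scale (adjusted p = 0.000106 by edgeR). Rbl1 read 58.7 and 59.8 CPM in WT and 67.5 and 59.1 in KO. Lin37 and Lin52 had 15 to 28 counts per untreated library, and differences in them were not detectable at this depth. The lists gave 1 of 26 G1/S targets higher in KO (Mcm10) and 0 of 26 G2/M targets called, while Foxm1 rose by 0.98 (SE 0.112, adjusted p = 4.73e-10).

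**Figure D4:**
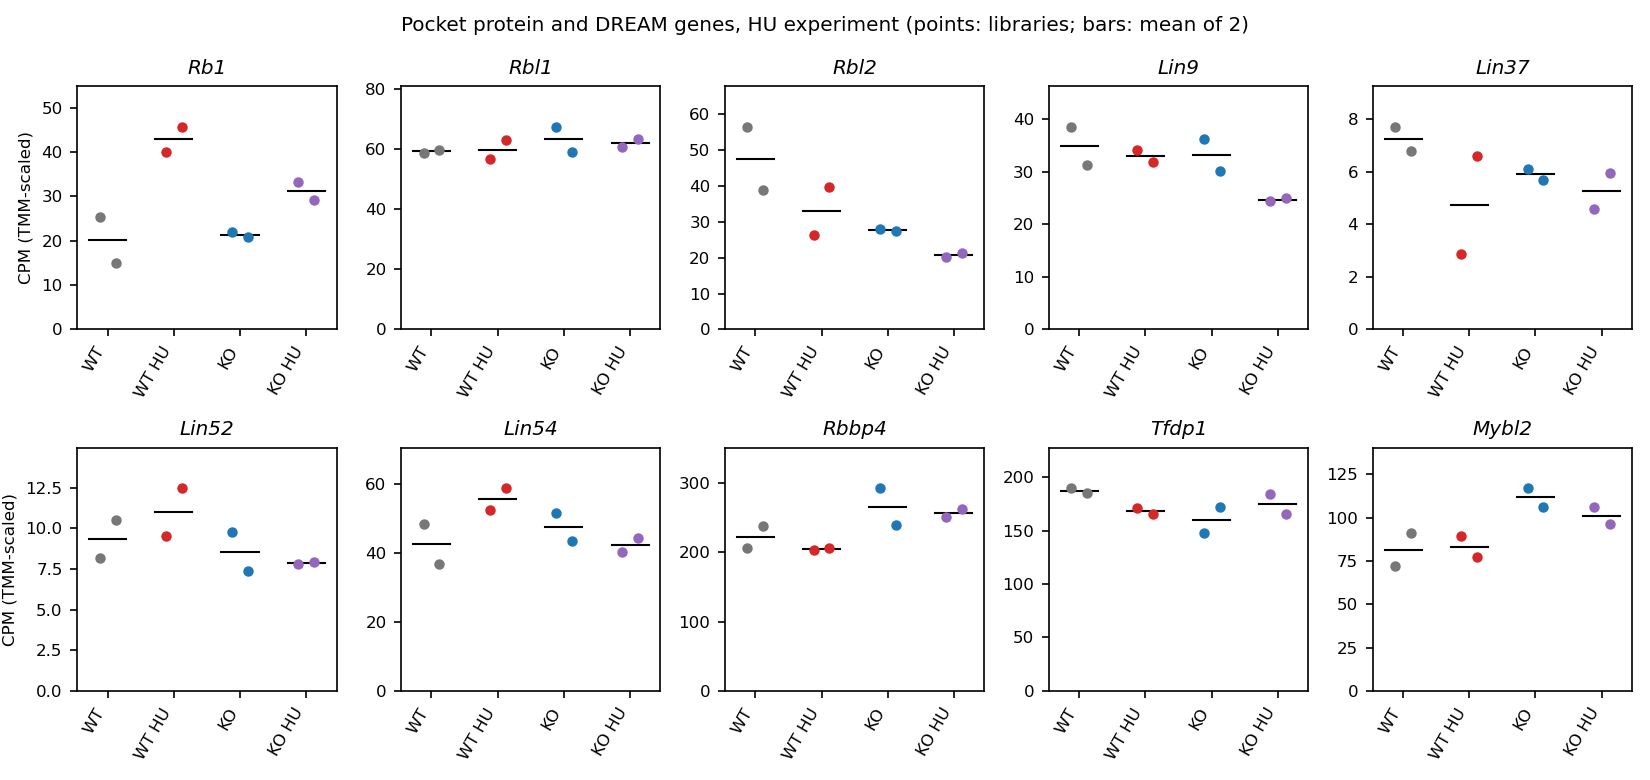
Levels of the 10 genes in the 8 libraries of the HU experiment, in CPM on linear axes that start at 0, with 1 panel per gene. Points are libraries and bars the means of 2. Rb1 stands apart in the HU-treated WT libraries at 40.1 and 45.7 CPM, and Rbl2 is lower in KO than in WT among untreated libraries.

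HU was compared with no treatment in each genotype, which asks whether stalled replication changes these genes. Rb1 was the one member that rose, in WT cells, where 9.83% of all genes were called and 6.39% rose. It went from 25.3 and 15.04 CPM to 40.1 and 45.7 (126 and 132 counts), without overlap, with a log2FC of 1.10 (0.60 to 1.60, adjusted p = 0.0013). The call rests on WT untreated replicate 2, without which the log2FC was 0.75 (adjusted p = 0.115 by edgeR), and without replicate 1 it was 1.498. The overlapping genes Lpar6 and Rcbtb2 had values of -0.33 and -0.16. In KO cells Rb1 went from 21.9 and 20.7 CPM to 33.2 and 29.2, with a log2FC of 0.55 (0.04 to 1.06) that did not pass (adjusted p = 0.23 by edgeR). The difference in response between KO and WT was -0.55 with an interval from -1.27 to 0.17, so that the 2 genotypes were not shown to differ.

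In KO cells no member was called by HU, where 6.45% of all genes were. The test of the difference in response called no member and 8 genes in all (0.0714%), and DESeq2 called 0 members in both. Rbl2 read 26.4 and 39.8 CPM in HU-treated WT, against 20.2 and 21.3 in KO under HU, with a log2FC by HU of -0.52 in WT (adjusted p = 0.16 by edgeR) and -0.42 in KO. Mybl2 hardly moved, at 89.4 and 77.2 CPM under HU in WT, and 106.0 and 96.4 in KO, with an interval in WT of -0.28 to 0.34. Tfdp1 read 171.2 and 165.9 CPM under HU in WT, and 183.8 and 165.6 in KO.

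Between KO and WT under HU no member passed either, where 6.04% of all genes did, and DESeq2 called 0. The largest value was that of Rbl2 at -0.67 (-1.17 to -0.17, adjusted p = 0.0714 by edgeR), which ran from -0.94 without WT HU replicate 1 to -0.35 without WT HU replicate 2. Rbbp4 read 203.0 and 206.8 CPM in WT, against 251.3 and 263.2 in KO, without overlap (log2FC 0.33, adjusted p = 0.0554 by edgeR), and passed when the fit held only these 2 groups. Lin9 read 34.0 and 31.9 CPM in WT, against 24.4 and 24.9 in KO, and Lin54 52.5 and 58.9 against 40.3 and 44.3. Both Lin genes were lower in KO without overlap, with a log2FC of -0.42 and -0.40 that did not pass the test. Rbl1 overlapped, at 56.6 and 63.0 against 60.8 and 63.2 CPM.

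**Figure D5:**
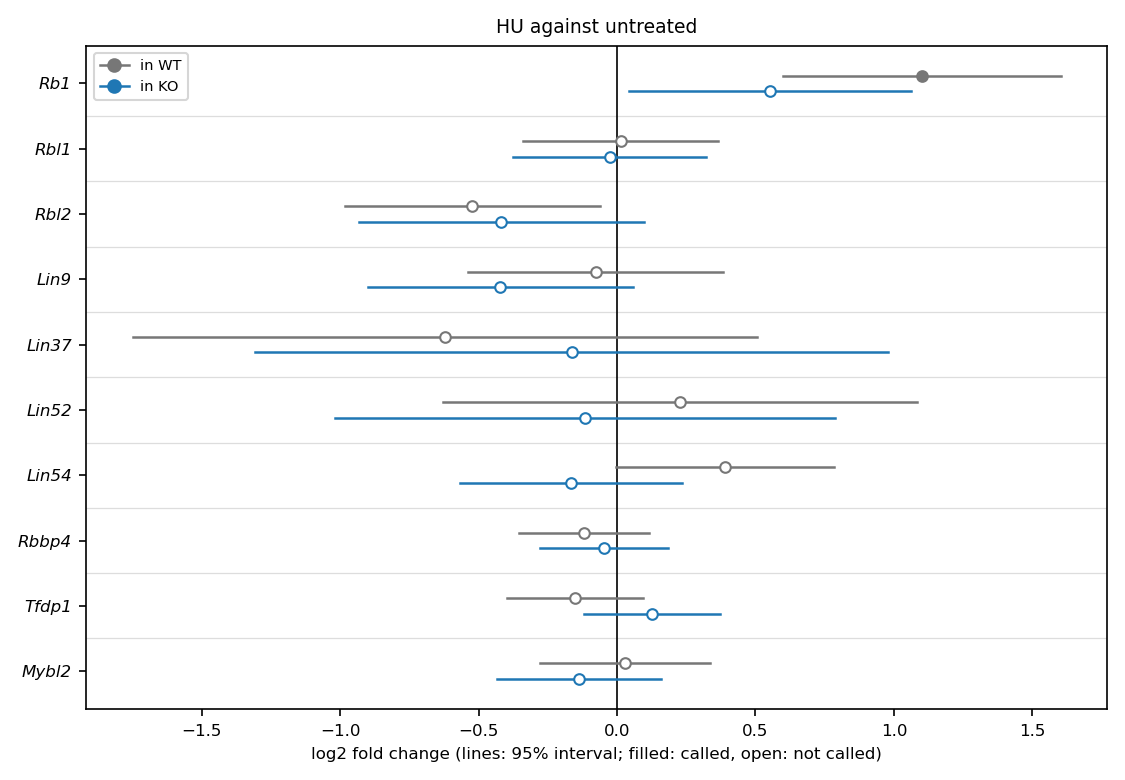
Log2 fold change of HU against untreated for the 10 genes in WT and KO cells, with 95% intervals. The filled point is called at an adjusted p below 0.05. Rb1 in WT (1.10) is the one called value, Rb1 in KO lies at 0.55, and Lin37 has the widest intervals.

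Target genes of the complexes moved under HU while most of the members did not pass the test. Of 26 G2/M targets, 0 rose and 18 fell in WT (median -0.50, with 3.44% of all genes falling) and 0 rose and 14 fell in KO (median -0.46, with 1.8% of all genes falling). The mitotic kinase Plk1 had a log2FC of -1.28 in WT and -1.39 in KO, and the kinetochore gene Cenpf of -1.23 and -1.01, all called. Of 26 G1/S targets, 3 rose and 0 fell in each genotype, where 6.39% (WT) and 4.65% (KO) of all genes rose, among them Cdc45 (0.59) in WT and Brca1 (0.58) in KO. The kinase inhibitor Cdkn1a rose by 3.16 in WT (SE 0.128) and 2.63 in KO (SE 0.119). Of the relatives of the members, Mybl1 rose by 1.57 in WT and 1.44 in KO, while Foxm1 had a log2FC of -0.22 in WT, which did not pass, and of -0.44 in KO, where it fell (adjusted p = 0.00423 by edgeR).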

How the data were processed

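RNA-seq libraries of 10 groups, 2 libraries each, were prepared per the labels with a NEBNext Ultra II kit after TRIzol extraction. Reads were aligned by the authors to the mm9 build (STAR 2.5.4), and they deposited 2 tables of read counts per gene, 1 for each experiment. One table, that of the Myc experiment, is named as normalised, but its values are whole numbers with unequal column totals and were taken as counts. In the HU experiment 71.9% of the counts between 1 and 50 are even, against 48.4% in the Myc experiment, and an alternative divided those counts by 2. The counting tool, its annotation and its use of strand are not given in the sources used here. The deposited results of the authors' own edgeR 3.26.8 comparisons (fold changes, p-values) were not used.

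The counts were fitted with edgeR 4.0.16 (TMM, glmQLFit, glmQLFTest) under R 4.3.3, each experiment alone with all its libraries and 1 coefficient per group. p-values were adjusted over all genes tested by the method of Benjamini and Hochberg. The thresholds of 0.01 and, for HU against untreated, 0.05 follow the study. The default filter removed 0 genes. Genes without a symbol (298 and 168) took 1.48% and 1.40% of the counts and stayed in the fits. Intervals use the SE and the total degrees of freedom of the test, and the fit recovered known changes in simulated data. The 15 comparisons were repeated with DESeq2 1.42.0, with other normalisation, filters, thresholds and samples, and with a replicate block. Gene models are those of GENCODE vM1 and promoters those of RefSeq. The genes named are the 10 members, Trim33 and Myc, overlapping genes, E2f1, E2f4, E2f5, the close relatives of the members, at most 2 called genes of a list with the largest change, cell type markers, and the 3 genes most like Mybl2 and Rbl2. The members and lists were chosen with earlier results of these data known.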

Additional observations from a re-analysis of the deposited data

Results flagged for a closer look

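The response of several members to the Myc vector differed between genotypes by the test of the difference itself, in libraries whose Trim33 order differed from their labels. Myc mRNA was higher with the Myc vector than with Ctrl in the KO lines and hardly so in WT. Values for a single KO line rest on the KO1 and KO2 labels of the Myc libraries. The log2FC by Myc in KO1 minus that in WT was -1.13 for Mybl2, -0.45 for Tfdp1, -0.31 for Rbbp4 and 0.83 for Rb1. In KO2 minus WT it was -1.62 for Mybl2, -0.42 for Tfdp1, -0.28 for Rbbp4 and -0.54 for Rbl2. Over the mean of both KO lines, which does not depend on those labels, it was -1.37 for Mybl2, -0.43 for Tfdp1, -0.29 for Rbbp4, -0.53 for Rbl2 and 0.51 for Rb1. For Mybl2, Tfdp1, Rbbp4 and Rbl2 the Ctrl levels of both KO lines were above WT, and for Rb1 they were below it. Those comparisons and the differences in response share the same WT Ctrl libraries and are not separate results.

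The log2FC of KO against WT for Rbl2 and Tfdp1 had opposite signs in the 2 experiments, called in the Myc experiment and not called in the HU experiment. For Rbl2 the log2FC with the Ctrl vector was 0.57 (KO1) and 0.47 (KO2), and it was -0.77 in untreated KO cells of the HU experiment (adjusted p = 0.0223 by edgeR). Tfdp1 had a log2FC of 0.91, 1.00 and -0.23 in the same order, the last with an interval of -0.47 to 0.02 (adjusted p = 0.254 by edgeR). These genes were flagged for opposite signs without overlap of KO and WT libraries, with the Ctrl vector and in untreated cells. The lack of overlap in those groups is therefore not a further result. Mean Tfdp1 was 91.3 CPM in WT Ctrl and 187 in untreated WT, against 172 (KO1 Ctrl), 183 (KO2 Ctrl) and 160 (untreated KO). Mean Rbl2 was 32.4 and 47.6 in these WT groups, against 47.9, 44.8 and 27.7. Mybl2, whose sign was the same, had means of 21.3 and 81.5 in WT. The WT groups thus also differed in level, with CPM scaled in each experiment alone. The difference between the experiments and the part of the WT groups in it were not tested. The experiments differ in vector, depth and possibly KO line, so that these cannot be told apart.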

How the results depend on the processing

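Counts of members called were recomputed under each alternative, out of 10. The share of all genes called under each alternative is not given beside them. The counts therefore describe how stable the calls were and are not read as results about the members. With an adjusted p below 0.05 they were 2 for KO2 against KO1, 6 for Myc in WT, 4 for Myc in KO1, 2 for Myc in KO2, 3 for KO2 against WT with the Myc vector, 5 for the difference in Myc response of KO1 and 2 for untreated KO against WT. Fits of only the groups compared gave 2 for KO2 against KO1, 3 for Myc in WT, 4 for Myc in KO1, 2 for Myc in KO2, 1 for KO1 against WT with the Myc vector, 2 for the difference in Myc response of KO2 and 1 for KO against WT under HU. DESeq2 gave 1 for KO1 against WT with the Myc vector. An alternative chosen after seeing the data, with only the 6 Ctrl-vector libraries, gave 2 for KO2 against KO1, and called Rbl1 (0.19) in KO2 against WT. The mean of both KO lines, also chosen after seeing the data, gave 3 for Myc (against 2 and 0), 2 for KO against WT with the Myc vector (against 2 and 1) and 5 for the difference in Myc response (against 4 and 4), with the log2FC of Rb1 by Myc at 0.042 against -0.27 in KO2. Leaving out 1 library at a time gave 3 to 4 for KO2 against WT with the Ctrl vector (5 in all libraries), 2 to 6 for Myc in WT, 1 to 2 for Myc in KO1, 1 to 2 for KO1 and 1 to 3 for KO2 against WT with the Myc vector, 3 to 5 and 2 to 4 for the difference in Myc response of KO1 and KO2, 0 to 1 for untreated KO against WT and 0 to 1 for HU in WT, and changed no other count. A group left with 1 library was assumed to vary like the others. Of 120 values not called, 45 changed sign under some alternative and 19 were called under one other than the threshold, and 0 called values changed sign. The cause of these shifts was not tested.

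Same-numbered replicates were treated as unpaired in the main fits. The correlation of their deviations ran from -0.15 to 0.19 over 15 pairs of groups in the Myc experiment. It ran from -0.014 to 0.051 over 6 in the HU experiment. Such values cannot settle whether the replicates were paired, since low correlations can also arise from paired libraries. With a replicate block the count was 4 for Myc in KO1 against 2 without it (Rb1 and Rbl1 added), 6 for Myc in WT against 5 (Rbl2 added), and 5 for the difference in Myc response of KO1 against 4 (Rbl2 added), with the other counts as without it. Halving the counts of the HU experiment changed no count of members called. Lin37 and Lin52, with 9 to 36 counts per library in the HU experiment, are the members that depth limits most.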

Other observations

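The genes whose log2 levels followed Mybl2 most closely over the 12 libraries of the Myc experiment were Ripk4, a kinase of keratinocyte differentiation, Card10, an adaptor of NF-κB signalling, and Gcat, a mitochondrial enzyme of threonine breakdown, with a Pearson r of 0.99, 0.98 and 0.97 among 10287 genes compared. Those that followed Rbl2 were Tns1, Lpin1 and Kif24, with 0.93, 0.93 and 0.90. These libraries fall into 6 groups of 2 that share genotype and vector, and the values describe them without a test.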
